A study of Rattus norvegicus with 15 samples.

Results

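The EGR (early growth response) genes Egr1, Egr2, Egr3 and Egr4 encode zinc-finger transcription factors. They were followed here through the loss and the return of glial cell line-derived neurotrophic factor (GDNF) in cultured rat spermatogonial stem cells, from which all later germ cells of the male arise. The members were the 6 probe sets whose single gene symbol in the platform annotation is one of these 4 names, out of 14218 genes with a probe set of 1 symbol. Egr1 and Egr3 had 1 probe set each, and Egr2 and Egr4 had 2 each. Cells were grown for a month in serum-free medium with GDNF, and all groups came from such cultures. The control kept GDNF, the withdrawal group spent 18 h without it, and the other groups spent 18 h without it and then received it again for 2, 4 or 8 h. Independent cultures gave 3 arrays for every one of the 5 groups, hence 15 arrays. No group kept without GDNF for as long as the return groups lasted is analysed here, so the time since withdrawal and the return of GDNF cannot be told apart.

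EGR proteins bind GC-rich promoter sites through closely similar zinc fingers, and the proteins of the NAB family bind and restrain some of these EGR proteins. Egr1 and its relatives are textbook immediate early genes: growth factors switch them on within minutes through the RAS and ERK kinases. That signal reaches serum response factor (SRF) and its ETS-family partners at a sequence called the CArG box, and CREB-family factors at the cAMP response element (CRE). GDNF acts through the GFRA1 co-receptor and the RET kinase, which feed the same kinases, and it is the factor on which the self-renewal of spermatogonial stem cells in culture depends.

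The promoters are shown as a description, and their part in the changes of the members was not tested. They are the 250 bases before the annotated start from RefSeq on build GRCr8, 5′ to 3′. RefSeq entries in the sequence table matched 3 of the 4 members, all but Egr3. Capitals mark each CArG box (both strands) and each CRE core, ACGTCA on either strand. The Egr1 stretch is chr18:26736828-26737077 on the plus strand. The Egr2 stretch is chr20:21054442-21054691 on the minus strand, and RefSeq has a further transcript of Egr2 that starts upstream of it. The Egr4 stretch is chr4:119607818-119608067 on the minus strand.
Egr1: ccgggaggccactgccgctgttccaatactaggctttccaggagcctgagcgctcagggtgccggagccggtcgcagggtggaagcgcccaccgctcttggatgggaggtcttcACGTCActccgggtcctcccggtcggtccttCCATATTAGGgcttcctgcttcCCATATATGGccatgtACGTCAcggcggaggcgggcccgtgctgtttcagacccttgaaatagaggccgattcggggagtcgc
Egr2: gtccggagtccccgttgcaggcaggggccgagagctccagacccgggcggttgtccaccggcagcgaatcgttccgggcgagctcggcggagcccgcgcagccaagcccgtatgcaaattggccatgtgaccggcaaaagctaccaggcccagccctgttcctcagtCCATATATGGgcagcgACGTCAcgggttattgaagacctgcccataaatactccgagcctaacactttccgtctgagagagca
Egr4: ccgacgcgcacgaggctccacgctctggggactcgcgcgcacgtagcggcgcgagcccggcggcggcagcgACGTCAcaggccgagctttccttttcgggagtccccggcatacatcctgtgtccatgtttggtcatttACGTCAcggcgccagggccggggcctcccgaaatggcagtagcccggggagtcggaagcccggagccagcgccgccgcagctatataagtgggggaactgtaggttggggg

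In the Egr1 promoter 2 CArG boxes ran from -105 to -96 and from -83 to -74, counted from the annotated start. The Egr2 promoter had 1 CArG box, and it lay at the same place, from -83 to -74. In both promoters a CRE core ran from -67 to -62, so that 6 bases separated it from the CArG box. Egr1 had a further CRE core from -136 to -131. Egr4 had no CArG box. Its CRE cores ran from -179 to -174 and from -111 to -106, and 6 bases before the second lay CCATGTTTGG, from -127 to -118, a CArG box but for 1 G in its A/T core. Of 33469 promoters of this length 1.5% held a CArG box, 0.0209% at least 2 of them, 6.95% a CRE core, 0.0747% both motifs, and 6.84% a CArG box with 1 G or C in its core. A CRE core beginning exactly 6 bases after a CArG box stood in 3 promoters, those of Egr1, Egr2 and Dusp5. Allowing 1 G or C in the core added 1 promoter, that of Egr4. The spacing was chosen after the sequences were seen and is a description of letters in this window.

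The labelled cell type was checked against its markers. Of 14 markers of undifferentiated spermatogonia and germ cells 10 had a probe set of 1 symbol, and 7 passed the low-value filter described next. The mean log2 intensity of these 7 was 11.11 to 11.24 in the control, 11.14 to 11.3 after withdrawal, and 10.99 to 11.06, 11.04 to 11.13 and 11.04 to 11.11 at 2, 4 and 8 h of return. Every return array was thus under every withdrawal array. The 7 markers did not move as 1: on withdrawal 4 were higher and 3 lower, against 11.4% and 9.67% of all tested probe sets. Compared with withdrawal 0 were higher and 3 lower at 2 h, 2 and 3 at 4 h, and 1 and 3 at 8 h. Of all tested probe sets 11.9%, 14.6% and 9.62% were higher and 14.2%, 16% and 15.4% lower at these times. Ret, the GDNF receptor kinase, stood at 4301 ± 235 in the control (SD, n = 3) and was itself lower at 2 h and 4 h than after withdrawal (1.44- and 1.96-fold, limma adjusted p = 1.09e-06 and 4.75e-10), while Gfra1 and Thy1, which mark these stem cells, were under 16 in the mean of every group. Mesenchymal markers, a sign of fibroblasts or feeder cells, were also present: 11 of 16 passed the filter. Their mean log2 intensity ranged over 8.15 to 8.61 in the control, 7.81 to 8.59 after withdrawal, and 7.68 to 7.95, 7.74 to 8.28 and 8.37 to 8.64 at 2, 4 and 8 h of return. None of 8 Leydig or peritubular markers passed, and 4 of 9 Sertoli markers did (7.57 to 7.95 over all arrays), as did 1 of 8 immune or blood markers (8 to 8.37) and 2 of 4 endothelial markers. Only 7 of the Sertoli and 3 of the endothelial markers had a probe set of 1 symbol. The Sertoli mean was 7.64 to 7.71 in the control, 7.57 to 7.74 after withdrawal, and 7.64 to 7.69, 7.78 to 7.95 and 7.71 to 7.81 at 2, 4 and 8 h of return. The endothelial mean was 4.82 to 4.97 in the control, 4.22 to 4.33 after withdrawal, and 4.33 to 4.41, 4.36 to 4.45 and 4.53 to 4.62 at 2, 4 and 8 h of return. Within it Kdr, a VEGF receptor gene, fell from 21.75 ± 1.99 to 7.66 ± 0.73 (SD, n = 3) on withdrawal (limma adjusted p = 8.12e-08). Kdr was under 16 on all withdrawal and return arrays, and with values under 16 set to 16 its fall was 1.36-fold. It passed the filter only through its control arrays, so neither its call nor the fall of the endothelial mean is separate evidence of a fall. Pecam1, the other tested endothelial marker, read 42.39 ± 8.1 in the control and 48.26 ± 3.27 after withdrawal and was not called. The part of Kdr in the fall of Egr1 on withdrawal was not tested. On the leading principal component after group means were removed, control replicate 2 (12.46), withdrawal replicate 1 (-13.95) and 4 h replicate 1 (-11.28) lay over 10 score units from the nearest array of their own group (15.66, 16.29 and 15.05). Control replicate 1 (-9.26) and withdrawal replicate 3 (11.62) were also far from 0 but nearer to a group mate (6.06 and 9.28).

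Every value below called a reading is a linear intensity of 1 probe set, and an intensity under 16 (4 on the log2 scale) is treated as low. A probe set was tested where at least 3 of the 15 arrays reached 16, as 15856 of 31042 did. Egr3 did not pass, nor did the second probe sets of Egr2 and Egr4. Egr3, which codes for an EGR factor known from muscle spindles and lymphocytes, lay between 4.544 and 6.174 on the 15 arrays. Its highest value was control replicate 3, and the other 14 arrays were at or under 4.636. The second Egr2 probe set lay between 4.243 and 4.353 and the second Egr4 probe set between 4.138 and 4.251. These 3 probe sets were thus under 16 on every array, with GDNF and without it. Fitted without a filter, none of them passed the threshold in any of the 10 comparisons (limma, lowest adjusted p for each 0.351 for Egr3, 0.335 for Egr2 and 0.34 for Egr4). A low value on an array does not show that a transcript is absent, because probe sets differ in how well they bind.

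**Figure D1:**
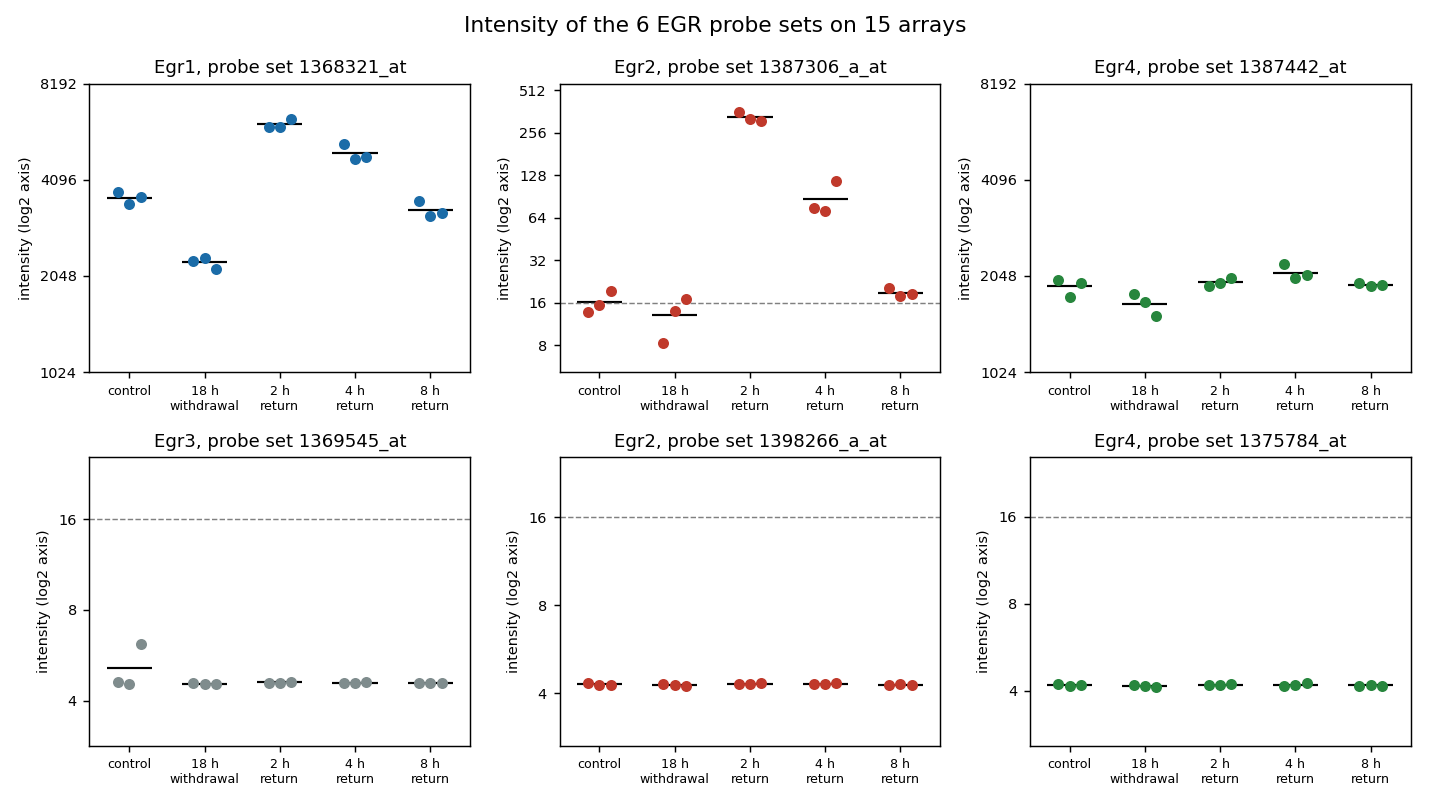
Intensity (log2 axis) of each of the 6 probe sets of Egr1, Egr2, Egr3 and Egr4 on 15 arrays, by group. Points are arrays, black bars group means (n = 3) and the dashed line an intensity of 16. Egr1 runs from 2160 to 6363, Egr2 from 8.301 to 357.8 and Egr4 from 1536 to 2225, while the lower 3 panels stay under 16.

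Egr1 was lower after withdrawal than in the control, stood above the control at 2 h and 4 h of return, and declined again by 8 h. Egr1 is the founding member of the family and its most studied one. Its probe set read 3739, 3439 and 3607 on the control arrays and 2279, 2333 and 2160 after withdrawal. With GDNF back for 2 h it read 5982, 6009 and 6363. After 4 h it read 5299, 4753 and 4830, and after 8 h 3526, 3147 and 3213. The withdrawal arrays were the lowest and the 2 h arrays the highest of the 15, and control and 8 h were the only neighbouring groups whose values overlapped.

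On withdrawal Egr1 fell 1.59-fold (log2 -0.67 with an SE of 0.05, limma adjusted p = 4.58e-07). After 2 h of return it was 2.71-fold above withdrawal (1.44 ± 0.05, adjusted p = 2.37e-10) and 1.7-fold above the control that never lost GDNF (0.77 ± 0.05, adjusted p = 1.05e-07). Egr1 thus passed the control level before it came back to it. At 4 h it was 2.2-fold and at 8 h 1.46-fold above withdrawal (adjusted p = 7.16e-10 and 3.58e-06). The fall from 2 h to 4 h was 1.23-fold and that from 4 h to 8 h 1.51-fold (adjusted p = 0.00146 and 5.08e-06). By 8 h the difference from the control was -0.13 on the log2 scale, with a 95% confidence interval of -0.24 to -0.01, and did not pass the threshold (adjusted p = 0.141). The order of Egr1 levels was therefore withdrawal, then 8 h and control, which were not told apart, then 4 h, then 2 h.

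Egr2 answered on another scale. Egr2 encodes the EGR factor known for hindbrain patterning and for the myelin programme of Schwann cells. Its brighter probe set read 13.76, 15.41 and 19.52 in the control and 8.301, 14.15 and 17.14 after withdrawal. After 2 h of return it read 357.8, 320.3 and 313.1, after 4 h 74.78, 72.27 and 116.4, and after 8 h 20.27, 18.04 and 18.42. Control and withdrawal values overlapped and lay around 16, with 2 of 3 arrays under it in each group. All 2 h arrays were above all 4 h arrays, and these were above all others.

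At 2 h Egr2 stood above withdrawal by 4.71 ± 0.23 on the log2 scale (SE), or 26.1-fold (limma adjusted p = 4.08e-09), the highest rise among the 15856 probe sets with or without a floor or an added constant. Since the withdrawal values were low, the size depends on how they are read: with values under 16 set to 16 it was 20.1-fold, and with 16 added to each intensity the log2 change was 3.58. Against the control it was 20.5-fold at 2 h and 5.34-fold at 4 h (adjusted p = 6.21e-09 and 3.34e-06). These folds were 19.3 and 5.01 when values under 16 were raised to 16, and with 16 added the log2 changes were 3.43 and 1.67. At 4 h it was 6.79-fold above withdrawal (log2 2.76 ± 0.23, adjusted p = 4.19e-07), or 5.23-fold with values under 16 set to 16, and the log2 change was 1.82 with 16 added. Between 2 h and 4 h Egr2 fell 3.85-fold, the largest fall of any tested probe set in that interval, and between 4 h and 8 h it fell 4.54-fold (adjusted p = 5.12e-05 and 2.53e-05). Both intervals of decline passed the threshold under every alternative tried.

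The withdrawal of GDNF itself left no called change in Egr2 (log2 -0.35, 95% confidence interval of -0.83 to 0.14, adjusted p = 0.317). It was -0.06 with values under 16 set to 16, and lay between -0.57 and -0.04 with 1 array left out. At 8 h all 3 arrays were above all 3 withdrawal arrays, by 0.58 on the log2 scale, but the difference did not pass the threshold (adjusted p = 0.0775). It was 0.21, or 1.15-fold, when values under 16 were raised to 16. With 1 array left out it lay between 0.28 and 0.80, and it passed the threshold without withdrawal replicate 3 (0.80, adjusted p = 0.0224). Against the control the 8 h difference was 0.23 (adjusted p = 0.571). The lowest neighbours in the order of Egr2 levels, withdrawal, control and 8 h, were thus not told apart, and 4 h and 2 h each stood above them.

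Egr4 moved little. It codes for the least studied EGR factor, which is known to be needed for male germ cell maturation in the mouse. Its brighter probe set read 1992, 1760 and 1952 in the control, 1791, 1701 and 1536 after withdrawal, and 1909, 1940 and 2023 at 2 h. At 4 h it read 2225, 2011 and 2058, and at 8 h 1940, 1907 and 1913. Withdrawal and control overlapped, and every return array was above every withdrawal array.

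Egr4 rose 1.17-fold at 2 h, 1.25-fold at 4 h and 1.15-fold at 8 h over withdrawal (log2 0.23, 0.33 and 0.20, each ± 0.06 SE; limma adjusted p = 0.0114, 0.000724 and 0.0224). Of these the 4 h rise passed the threshold under every alternative tried. Leaving out withdrawal replicate 3 ended the call at 2 h (adjusted p = 0.054), and so did the mesenchymal marker mean as a covariate (log2 0.12, adjusted p = 0.136). That at 8 h was lost without withdrawal replicate 3 (adjusted p = 0.102) or any 1 of the 8 h replicates (0.0648, 0.0527 and 0.0549 without replicate 1, 2 and 3). The fall on withdrawal was 1.14-fold (log2 -0.18 ± 0.06, adjusted p = 0.0389), and log2 -0.29 without the 3 arrays far from their group (adjusted p = 0.00303), an alternative chosen after seeing the data. Leaving out control replicate 1 or 3, or withdrawal replicate 2 or 3, ended that call (adjusted p = 0.132, 0.114, 0.0699 and 0.162). No difference from the control was called at 2, 4 or 8 h (log2 0.04, 0.14 and 0.02, adjusted p = 0.651, 0.1 and 0.905), and none between return times. In the order of Egr4 levels, withdrawal, control, 8 h, 2 h and 4 h, only the step from withdrawal to its neighbour was called.

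**Figure D2:**
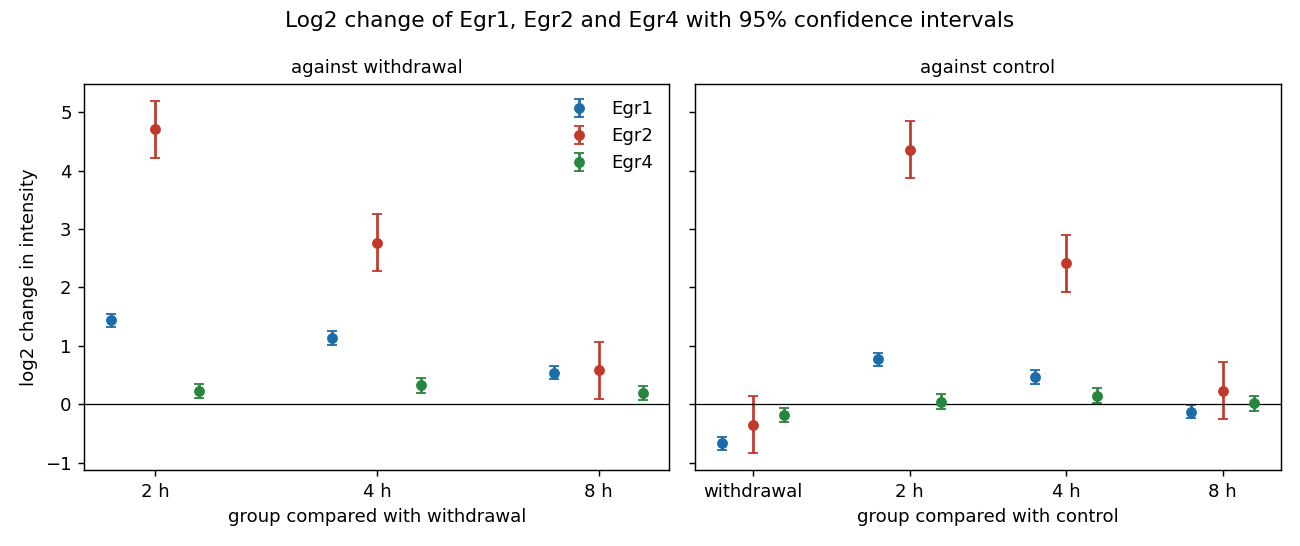
Log2 change of intensity (y) of Egr1, Egr2 and Egr4 against withdrawal (left) and against the control (right), by group (x). Points are limma estimates from 3 arrays a group and bars are 95% confidence intervals. Egr2 reaches 4.71 at 2 h against withdrawal, Egr1 1.44 and Egr4 0.23, and at 8 h the 3 intervals against the control are near 0.

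Read against the background, the calls of the members stand as follows. After withdrawal 9.67% of tested probe sets were lower, among them 2 of the 3 tested EGR probe sets. At 2 h of return 11.9%, at 4 h 14.6% and at 8 h 9.62% of probe sets were higher than after withdrawal, against 3, 3 and 2 of the 3 members. The arrays of the return group and of the withdrawal group did not overlap in 42.7%, 41.3% and 40.9% of probe sets at 2, 4 and 8 h, and in 3 of 3 members each time. Lower than after withdrawal were 14.2%, 16% and 15.4% of probe sets, and 11.4% were higher after withdrawal than in the control, with no member among any of these. Above the control stood 11.2% of probe sets at 2 h and 11.2% at 4 h, with Egr1 and Egr2 among them at both times, while at 8 h 12.3% of probe sets differed from the control in either direction, with no EGR probe set. From 2 h to 4 h 6.14% and from 4 h to 8 h 6.1% of probe sets fell, each time with Egr1 and Egr2, and from 2 h to 8 h 14.4% fell, again with both. From 2 h to 4 h 7.56% rose, with no member. Over the 5 groups 49.6% of probe sets differed by the limma F test, the 3 members included (adjusted p = 3.3e-10 for Egr1, 2.27e-09 for Egr2 and 0.00471 for Egr4). By the F statistic Egr1 ranked 24, Egr2 44 and Egr4 3969 of 15856. The comparisons with withdrawal share its 3 arrays, and those with the control share the control's.

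The mesenchymal and the spermatogonial marker means were lowest at 2 h, when Egr1 and Egr2 were highest, and the part of the spermatogonial mean was not tested. With the mesenchymal mean as a covariate the 2 h rise over withdrawal was 1.39 for Egr1 and 5.06 for Egr2 on the log2 scale (limma adjusted p = 4.77e-09 and 6.46e-09). Within groups the members followed the mesenchymal mean with slopes of -0.10 for Egr1, 0.69 for Egr2 and -0.20 for Egr4 (adjusted p = 0.511, 0.223 and 0.126). GAPDH control probes near the 3′ and the 5′ end of the transcript report on RNA integrity, and their log2 difference (3′ less 5′) was also lowest at 2 h (-0.27 to -0.25, against -0.20 to -0.10 in the control and withdrawal groups), and its part in the result was not tested. Without control replicate 2, withdrawal replicate 1 and 4 h replicate 1, Egr1 was 1.45 and Egr2 4.4 above withdrawal at 2 h (adjusted p = 1.32e-08 and 4.2e-08). In a mixed culture, a change in each cell and a change in which cells respond cannot be told apart.

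The NAB corepressors bind some EGR proteins and hold down their activity, and Nab2 is itself a known EGR target. Nab2 read 1293, 1160 and 1242 in the control and 777.8, 713.7 and 711.3 after withdrawal. It read 1382, 1351 and 1394 at 2 h, 2525, 2034 and 2204 at 4 h, and 1186, 1056 and 1181 at 8 h. Its highest arrays were thus those of 4 h, when Egr1 and Egr2 were already below their 2 h level. On withdrawal Nab2 fell 1.68-fold, and at 2, 4 and 8 h it was 1.88-, 3.06- and 1.55-fold above withdrawal (limma adjusted p = 3.34e-06, 6.72e-07, 4.49e-10 and 1.44e-05). From 2 h to 4 h it rose a further 1.63-fold (adjusted p = 1.14e-05), and from 4 h to 8 h it fell 1.97-fold (7.55e-07).

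Nab1 did not follow the withdrawal (log2 -0.04 and 0.09 for its 2 probe sets, adjusted p = 0.826 and 0.363). It was 1.51- and 1.45-fold above withdrawal at 2 h and 1.56- and 1.6-fold at 4 h (limma adjusted p from 1.44e-06 to 0.000622). Its 8 h values, 1.06- and 1.09-fold over withdrawal, did not pass the threshold (adjusted p = 0.581 and 0.17). The EGR site GCGNGGGCG, searched on both strands, occurred 3 times in the 250 bases before the Nab1 start, as CGCCCACGC, GCGTGGGCG and GCGGGGGCG, and not in those of Nab2, Egr1, Egr2 or Egr4. In all, 4.29% of promoters held it and 0.114% held 3 or more.

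Of the 5 genes listed as NAB corepressors and relatives that bind similar DNA, 4 were tested. Wt1, a zinc-finger factor that recognises GC-rich sites like those of EGR, rose to 35.51 ± 7.85 at 4 h from 16.35 ± 1.2 after withdrawal (SD, n = 3; 2.14-fold, limma adjusted p = 7.45e-05). Its other probe set stayed under 16. Wt1 is also among the 4 tested Sertoli markers. Sp1, a general GC-box factor, was not called at any return time against withdrawal by its probe set of highest mean. The other tested probe sets of Sp1 are not analysed here.

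**Figure D3:**
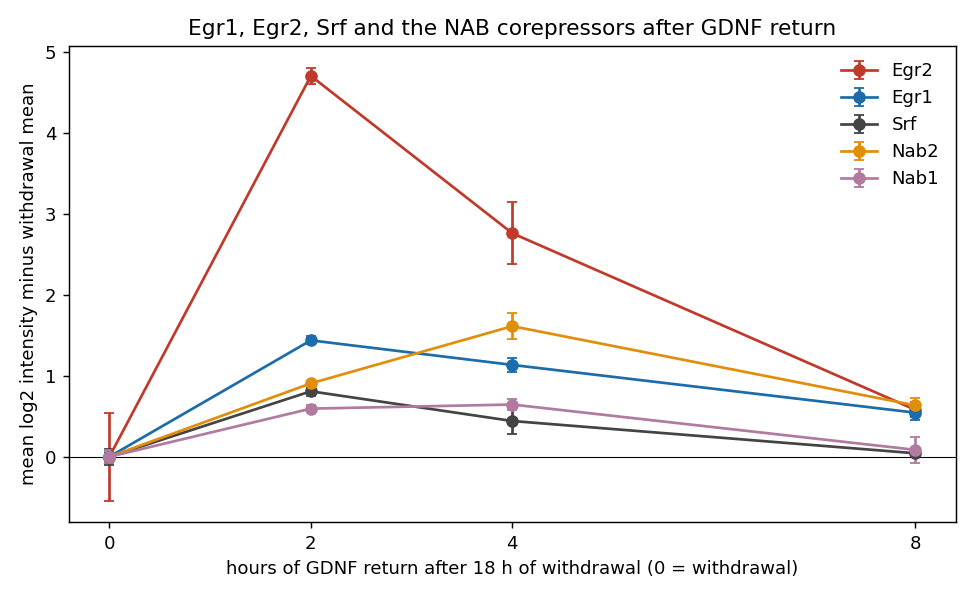
Mean log2 intensity minus the withdrawal mean (y) of Egr1, Egr2, Srf, Nab1 and Nab2 over hours of GDNF return (x, 0 = withdrawal). Points are means of 3 arrays and bars the SD within each group. Egr2, Egr1 and Srf are highest at 2 h and Nab2 at 4 h, at 1.61.

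Upstream of the EGR genes lie SRF and its partners, of which 9 of 10 listed genes were tested. Srf, which encodes the factor that binds CArG boxes, read 565, 561.4 and 554.5 in the control and 600, 540.3 and 527.9 after withdrawal, so these groups overlapped. It rose 1.75-fold at 2 h and 1.36-fold at 4 h over withdrawal (limma adjusted p = 1.9e-06 and 0.000259) and was at 1.03-fold at 8 h (adjusted p = 0.712). Its course at 2, 4 and 8 h thus had the order seen for Egr1 and Egr2, and its own promoter held 2 CArG boxes. Elk4, an ETS partner of SRF, fell 1.49-fold on withdrawal and rose 1.83-fold at 2 h (adjusted p = 6.69e-05 and 1.54e-06). Elk3, a partner known as a repressor when ERK is silent, fell 2.18-fold on withdrawal (adjusted p = 1.03e-07) and was not called at 2 h, but stood 1.81-fold above withdrawal at 4 h (1.19e-06). Atf1, a CREB-family factor, rose 1.32-fold at 2 h (adjusted p = 5.46e-06), while Mrtfa, an actin-controlled partner of SRF, fell 1.24-fold (0.0131).

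Among the SRF partners 3 genes were lower and 2 higher after withdrawal, 3 higher and 1 lower at 2 h, 4 and 1 at 4 h, and 3 and 1 at 8 h, with median log2 changes of -0.01, 0.02, 0.19 and 0.04. Over all probe sets the medians were 0.01, -0.02, -0.01 and -0.02. Of all probe sets 9.67% were lower and 11.4% higher on withdrawal. At 2, 4 and 8 h 11.9%, 14.6% and 9.62% of them were higher and 14.2%, 16% and 15.4% lower than after withdrawal. These shares are also the background for the next list. The kinase cascade from RAS to ERK, of which 9 of 17 listed genes were tested, had 2 lower on withdrawal (Nras and the adaptor Shc1) and 1, 3 and 1 higher at 2, 4 and 8 h, with 1 lower at 8 h (Sos1). Its median log2 changes of -0.08, 0.07, 0.06 and 0.05 were small. Of these kinases Rps6ka3, which phosphorylates SRF and CREB, was 1.26-fold above withdrawal at 2 h by its brightest probe set (limma adjusted p = 0.0118). Its other tested probe sets went the other way. They read 315.7 ± 25.4 and 98.77 ± 24.5 after withdrawal, and 209.8 ± 14.6 and 58.41 ± 7.69 at 2 h (SD, n = 3).

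Downstream, 35 genes reported elsewhere as EGR targets were listed, from a range of tissues, and 19 were tested. On withdrawal 7 were lower and 1 higher (median log2 change -0.14), among them Id3 (2.36-fold lower), an inhibitor of helix-loop-helix factors, and Tgfb1 (1.8-fold lower), the TGF-beta ligand gene (limma adjusted p = 3.29e-07 and 7.95e-07). At 2 h 7 were higher and 2 lower (median 0.20), at 4 h 9 and 0 (median 0.35) and at 8 h 7 and 0 (median 0.17). Of all probe sets 9.67% were lower and 11.4% higher on withdrawal, and 11.9%, 14.6% and 9.62% were higher and 14.2%, 16% and 15.4% lower at 2, 4 and 8 h. Vegfa, the vascular growth factor gene, was 2.58-fold above withdrawal at 2 h and 2.01-fold at 4 h (adjusted p = 3.09e-06 and 2.58e-05). Tgfb1 was 1.46-fold above it at 2 h and 1.91-fold at 4 h (7.59e-05 and 1.6e-07), so it stood higher at the later time (4 h against 2 h, adjusted p = 0.0019). Cdkn1a, a cell cycle inhibitor gene, was 1.34- and 1.6-fold above it (0.00144 and 1.25e-05).

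Sphk1, a sphingosine kinase gene, was under 16 on all control, withdrawal and 2 h arrays. It reached 39.57 ± 9.75 at 4 h (SD, n = 3), at least 2.42-fold over withdrawal when values under 16 are set to 16 (limma adjusted p = 1.85e-08 for the unfloored values). Sphk1 passed the filter only through its 4 h and 8 h arrays, so its calls at those times are not separate evidence of a rise. Its calls on withdrawal and at 2 h, counted above, compare values that were all under 16. F3, counted at 2 h, was under 16 on all withdrawal arrays and passed the filter only through arrays of 2 h and 4 h. Nab2 is a member of this list too, and Arc also of the list of immediate early genes. Arc, a neuronal immediate early gene known to need EGR factors in brain, fell 1.75-fold on withdrawal (adjusted p = 3.37e-05) from 80.33 ± 7.53 to 45.86 ± 0.526 (SD, n = 3). With GDNF returned for 2, 4 and 8 h its means were 41.83 ± 4.29, 44.31 ± 3.27 and 45.76 ± 0.697, and none differed from withdrawal by a call (adjusted p = 0.319, 0.731 and 0.986). Of 8 genes listed as targets of EGR2 in myelinating cells only Cdh1, Pmp22 and Prx were tested. Cdh1, the E-cadherin gene, was 1.38-fold higher after withdrawal and 1.38-fold lower at 2 h than after withdrawal (adjusted p = 0.00034 and 0.000338). Prx, the gene of the myelin protein periaxin, was 1.21-fold above withdrawal at 4 h (adjusted p = 0.0316), a call that was lost without the 3 arrays far from their group. Pmp22, a myelin membrane protein gene, was not called (log2 -0.92 and -0.69 at 2 and 4 h, adjusted p = 0.0896 and 0.193).

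**Figure D4:**
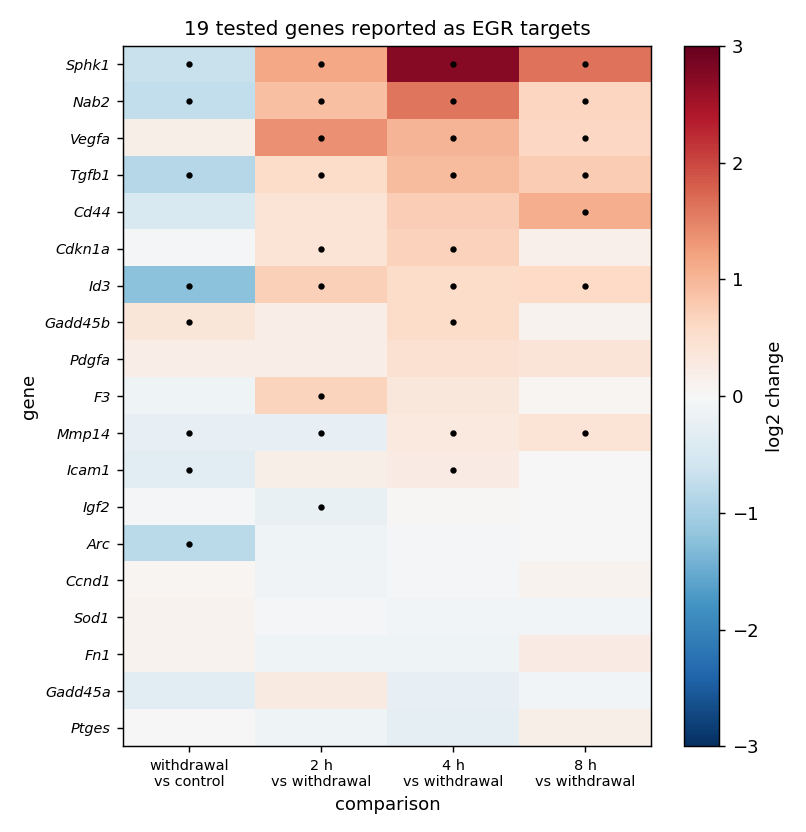
Log2 change (colour, red higher and blue lower) of the 19 tested genes reported as EGR targets (rows) in 4 comparisons (columns). Dots mark genes past the limma threshold. At 4 h 9 genes are marked and all 9 are above withdrawal.

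Set beside the EGR genes, 30 other immediate early genes were listed and 20 tested. On withdrawal 12 were lower and 0 higher, and 8 were not called. At 2 h of return 14 were higher and 1 lower, at 4 h 12 and 0, and at 8 h 11 and 1. Of all probe sets 9.67% were lower on withdrawal and 11.9%, 14.6% and 9.62% higher at 2, 4 and 8 h. The median log2 changes of the list were -0.39, 0.58, 0.53 and 0.30. Klf10, a zinc-finger gene of the TGF-beta response, fell 1.72-fold on withdrawal and was 2.22-fold up at 2 h (limma adjusted p = 2.89e-07 and 7.88e-09). The AP-1 gene Junb was 4.34-fold and Zfp36, an mRNA-destabilising protein gene, 2.23-fold above withdrawal at 2 h (8.81e-09 and 9.62e-09). Dusp1 and Jun, also classed as immediate early, were not called at 2 h (log2 -0.43 and -0.15, adjusted p = 0.158 and 0.437).

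The genes whose pattern was most like each member were found by Pearson correlation of log2 intensity over the 15 arrays among 8956 genes. The arrays fall in 5 groups, so these correlations describe shared group differences. For Egr1 they were Atxn7 (0.972), Bcl10 (0.962), Alg13l1 (0.961), the sterol synthesis gene Msmo1 (0.958) and Etf1 (0.957), which encodes a translation termination factor. Etf1 is also the next protein-coding gene to Egr1 in the RefSeq table of GRCr8, and it rose by 0.38 on the log2 scale at 2 h (limma adjusted p = 2.52e-05). The nearest tested genes beyond it and on the other side, Hspa9 and Kdm3b, were not called at 2 h (0.08 and -0.09, adjusted p = 0.259 and 0.243), and Kdm3b was higher on withdrawal (0.25, adjusted p = 0.00502), when Egr1 fell. Fbxo41, next to Egr4, fell by 0.58 at 2 h (adjusted p = 3.35e-05), when Egr4 rose. For Egr2 they were Zfp655 (0.965), Zfp105 (0.961), Srf (0.953), the Notch target Hes1 (0.948) and Idi1 (0.948), also of sterol synthesis. For Egr4 they were the AP-1 gene Fosl1 (0.902), Eva1a (0.899), Tusc3 (0.894), Plekhg2 (0.893) and Cdc42se1 (0.885). Between members the correlation was 0.898 for Egr1 with Egr2, 0.755 for Egr1 with Egr4 and 0.477 for Egr2 with Egr4.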

How the data were processed

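Per the labels, RNA of 15 independent rat spermatogonial stem cell cultures, 3 for each of 5 groups, was measured on 15 microarrays. What the authors deposited is 1 intensity per probe set and array. Its linear scale was read from the values. GCRMA and Partek 6.3 are named in the submitters' processing notes, with no role or order. GCRMA in general subtracts a sequence-based background and normalizes arrays together, so values near 4 to 16 depend on that estimate. Per array 50.2% to 50.5% of probe sets reached 16. Precision is limited by having 3 arrays a group. No 2 arrays shared over 50% of identical values.

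Intensities were taken to log2. Control probe sets (57 of 31099) were dropped, and tests were run on probe sets where at least 3 of 15 arrays reached 4. Group means were compared in 10 pairs by limma (version 3.58.1, under R 4.3.3; lmFit and moderated by eBayes with trend), with 1 spread fitted over all 15 arrays. Two-sided p-values were adjusted (Benjamini-Hochberg) across 15856 probe sets, with a threshold of 0.05. The annotation gives 1 symbol for 20832 probe sets, several for 436 and none for 9831; 20764 were updated by gene identifier through a RefSeq table (GRCr8). Where a listed gene had several tested probe sets, the one of highest mean was used. Listed genes without a tested probe set are not analysed here. The members and lists were chosen with earlier results of these data known. Named were all member probe sets, the NAB genes, up to 4 called genes of a described list with the smallest adjusted p in a comparison, and the 5 genes most like each member. Srf, Sphk1, Arc, Wt1, Mrtfa, Cdkn1a, Dusp1, Jun, Dusp5, Sp1 and Pmp22, Prx, Kdr, Pecam1, Ret and the neighbours of Egr1 and Egr4 were chosen after their values were seen. Promoters were searched in Python 3.11.15. In a simulation of 2 h against withdrawal, where 200 of 15856 probe sets were shifted, 80%, 98%, 100% and 100% of log2 changes of 0.5, 1, 2 and 4 were recovered, with 17 false calls. The simulated noise was independent between probe sets, and 4137 probe sets were called in the data. These rates therefore do not carry over to the data. Replicate numbers were not treated as pairs, since the labels do not tie them. Of 30 same-number pairs of arrays 8 deviated together (correlation over 0.1, range -0.138 to 0.389). For replicate 1 the correlation was 0.236 for control with withdrawal, 0.238 for control with 4 h and 0.389 for withdrawal with 4 h. It was 0.358 for control replicate 2 with withdrawal replicate 3, a pair of unlike number. Alternatives were other filters, floors, a pseudocount, centring, quantile normalization, no trend, array weights, the compared groups alone, a replicate block, a mesenchymal covariate each array left out, and, chosen after seeing the data, 2 sets of 3 arrays left out together.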

Additional observations from a re-analysis of the deposited data

Results flagged for a closer look

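The log2 change of Egr1 and Egr2 over withdrawal differed between times of return, by a test of the difference itself (limma). For Egr1 the log2 change over withdrawal was smaller at 4 h than at 2 h by 0.30 (-0.3, adjusted p = 0.00146), at 8 h than at 4 h (-0.59, adjusted p = 5.08e-06) and at 8 h than at 2 h (-0.89, adjusted p = 3.38e-08). For Egr2 these differences were -1.94 (adjusted p = 5.12e-05), -2.18 (2.53e-05) and -4.13 (1.92e-08). For Egr4 none of the 3 passed the threshold (adjusted p = 0.296, 0.199 and 0.783).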

How the results depend on the processing

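Of 651 recomputed values for Egr1, Egr2 and Egr4 (30 pairwise log2 changes and 3 F tests), 634 kept their direction where called and their side of the threshold, 14 lost a call, 3 gained one and 0 reversed. All those of Egr1 were kept, the 2 h change over withdrawal lying between 1.39 and 1.46. The Egr2 change at 8 h over withdrawal, 0.58, gained a call with the replicate block (0.58, adjusted p = 0.0493) and ranged from 0.28 to 0.80 with 1 array left out (adjusted p from 0.0224 to 0.343). The Egr4 fall on withdrawal, -0.18, lost its call without a filter (-0.18, adjusted p = 0.0871), without the intensity trend (-0.18, 0.0697) and with only the groups compared (-0.18, 0.14), and ranged from -0.24 to -0.12 with 1 array left out (0.0148 to 0.162). At 2 h Egr4 lost its call with the mesenchymal covariate (0.12, adjusted p = 0.136) and ranged from 0.16 to 0.28 with 1 array left out. At 8 h it lost it without a filter (0.20, adjusted p = 0.0532) and ranged from 0.14 to 0.25. From 2 h to 4 h Egr4 gained a call with that covariate (0.15, adjusted p = 0.0495). Apart from the smaller sample number where arrays were left out, the cause was not tested. The replicate block changed no other call of a member, and it raised the count of called probe sets at 2 h over withdrawal from 4137 to 4291; 7 of 15 arrays correlated best with an array of their own number in another group. With only the groups compared, called probe sets fell from 3342 to 2166 for withdrawal against control, from 3430 to 2025 for 4 h and from 1953 to 1241 for 8 h against control, and from 1532 to 892 for 8 h against 4 h. The last count was 925 with the covariate, 951 without 4 h replicate 1, 915 without 8 h replicate 2 and 998 without replicate 1 of the control, withdrawal and 4 h groups, the 3 lowest scores on the leading component. That of 8 h against control was 1300 without 8 h replicate 1, and 8 h against 2 h went from 4157 to 2310 with the covariate. Counts of called list members were within 1.5 times in 837 of 912 settings. Counts that were 0 in both fits were taken as within this range, which raises that share. By Spearman in place of Pearson correlation 1 of the 5 genes most like Egr1, 2 of those for Egr2 and 0 of those for Egr4 were shared. With a low-value level of 32 in place of 16, the same 3 member probe sets were under it on all arrays.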

Other observations

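Dusp5, an ERK phosphatase gene and the third promoter with a CRE core exactly 6 bases after a CArG box, read 103.3 to 140.1 after withdrawal, 315.6 to 362.5 at 2 h, 222.9 to 256.8 at 4 h and 157.9 to 180.8 at 8 h. It was 2.8-fold above withdrawal at 2 h (log2 1.49 ± 0.14 SE, limma adjusted p = 4.06e-06) and 1.97-fold at 4 h (0.000102). It was looked at after its promoter had been found, and its promoter also held at least 2 CArG boxes, as 7 promoters did.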
